A study of Setaria viridis with 22 samples.

Results

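The data described are the expression levels of 46 neighbouring genes of green millet (*Setaria viridis*), in inflorescences of the *spp1* (*sparse panicle1*) mutant and of the A10.1 wild type. The genes form 2 runs of consecutive rows in the expression table, 32 rows on chromosome 3 (Sevir.3G037500 to Sevir.3G040600) and 14 rows on chromosome 5 (Sevir.5G457800 to Sevir.5G459100). They are 46 of the 35214 primary transcripts listed. Both runs were picked because their genes read higher in *spp1* than in A10.1 in these same libraries, so the members were chosen by the ratio of *spp1* to A10.1 FPKM, and that difference is given as a description, without a test of its own. Every row between the 2 ends of a run is a member, weak genes included.

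RNA was taken from dissected inflorescences at 10, 12, and 14 d after sowing (DAS), the stages over which the inflorescence primordium grows and branches. The groups were *spp1* at 10 DAS (4 libraries), 12 DAS (3), and 14 DAS (4), and A10.1 at 10 DAS (4 libraries), 12 DAS (3), and 14 DAS (4), all from growth-chamber plants. The *spp1* mutant is a single line that arose in the A10.1 background and carries a lesion in an auxin importer gene, and A10.1 is the unmutated accession. Each library came from a pool of whole inflorescences, so within it fewer cells of a type and less RNA per cell cannot be told apart. The mutation is in every cell of the plant, and the values are averages over all cell types of the inflorescence.

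SPP1 is an AUX1-type carrier, a plasma membrane protein that brings the hormone auxin into the cell. Inside the cell, auxin is perceived by F-box proteins of the TIR1 family, which sit in a ubiquitin ligase built on a cullin scaffold and mark AUX/IAA repressors for degradation. In plants, genes that lie next to each other mostly have unrelated functions, although tandem copies of 1 gene, glutathione S-transferases among them, are common. SPP1 itself (Sevir.5G392400) lies on chromosome 5, with 653 rows between it and the first member there, and belongs to neither run.

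The libraries held 10.4 to 24.3 M mapped first reads in *spp1* and 13.4 to 24 M in A10.1, with 86.69% to 92.33% of reads mapped in *spp1* and 87.48% to 93.22% in A10.1. The library of *spp1* 14 DAS replicate 4 was the shallowest and also had the smallest share of its reads mapped. SPP1 averaged 22.4 ± 5.49 (SD, n = 4), 18.4 ± 2.79 (SD, n = 3), and 20.8 ± 5.396 (SD, n = 4) FPKM at the 3 stages in *spp1*, against 27.4 ± 7.43 (SD, n = 4), 26.97 ± 2.296 (SD, n = 3), and 32.6 ± 2.61 (SD, n = 4) FPKM in A10.1, so the mutant gene was still transcribed. Of 5 genes that mark meristems and branching in grass inflorescences, ra2, ra3, tsh1, and knox3 were detected in all 22 libraries and ba1 in 21. FPKM (fragments per kilobase of transcript, scaled to the mapped fragments of the library) corrects for transcript length and library size, but it carries no counts, so the counting error of weak genes is unknown. The A10.1 reads had been deposited once before with an earlier study of the authors, and when the libraries of either genotype were made is not given in the sources used here. The occasion of library making and the genotype therefore cannot be told apart.

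Most members were transcribed in the inflorescence. Of the 46, 35 were above 0 FPKM in all 22 libraries and 1 (Sevir.5G458400) was listed at 0 in every library. A member entered the comparison of the genotypes at a stage when its mean over the libraries of that stage was at least 1 FPKM, which 35, 33, and 31 members passed at 10, 12, and 14 DAS. A total of 31 passed at all 3 stages, 4 at 1 or 2 stages, and 11 at none. Some entered only through the high group: 1, 2, and 2 of those compared at 10, 12, and 14 DAS had an A10.1 mean under 1 FPKM. The members least affected by that filter are the 21 whose A10.1 mean was at least 5 FPKM at every stage, 17 on chromosome 3 and 4 on chromosome 5. Their A10.1 means over 11 libraries ran from 6.24 FPKM for Sevir.3G040300 to 1147 FPKM for Sevir.3G037800, with a median of 46.1 FPKM.

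Across the 21 well-expressed members, the *spp1* to A10.1 ratio of mean FPKM had medians of 1.56, 1.45, and 1.49 at 10, 12, and 14 DAS. The quartiles around these medians were 1.51 and 1.68, 1.41 and 1.57, and 1.34 and 1.84. The single lowest ratio was 1.14 and the single highest 2.58, and all 21 were above 1 at each of the 3 stages. The 11980 other genes that met the same level requirement had median ratios of 0.974, 0.995, and 0.936 at 10, 12, and 14 DAS. The rest of chromosome 3 (1515 genes) had medians of 0.977, 0.992, and 0.938, and the rest of chromosome 5 (1717 genes) had 0.973, 0.992, and 0.9303. In the fits across all genes, the median log2 difference of the members compared was 0.66, 0.52, and 0.53 at the 3 stages, against -0.02, -0.00, and -0.10 for all other genes compared.

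**Figure D1:**
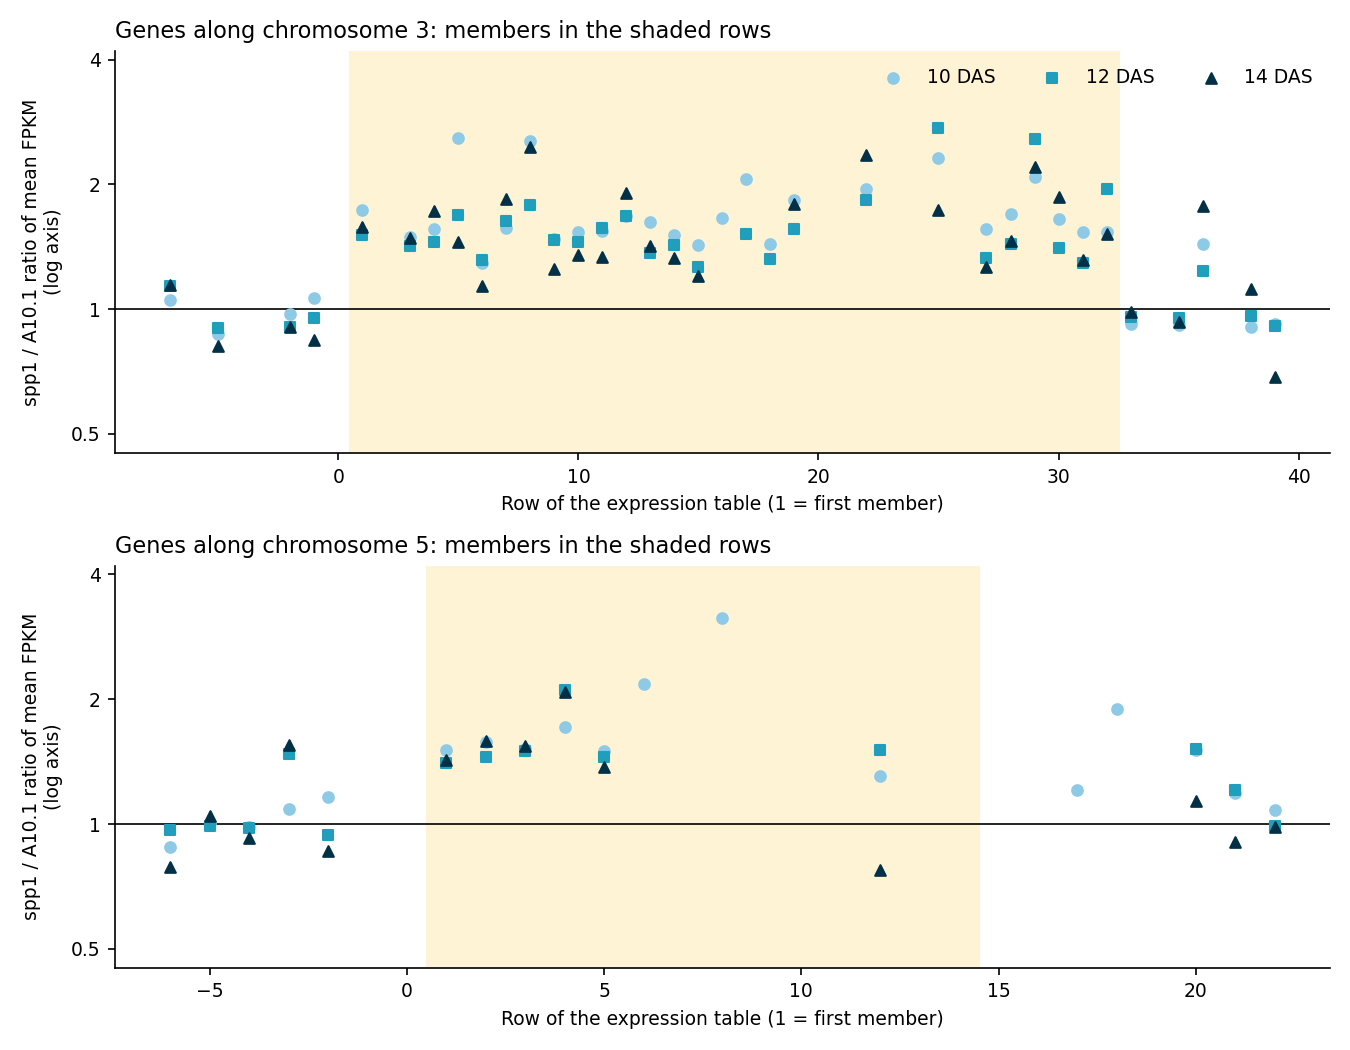
Ratio of mean FPKM in *spp1* over mean FPKM in A10.1 (log axis) for consecutive rows of the expression table on chromosome 3 (top) and chromosome 5 (bottom), where row 1 is the first member, shading covers the members, marks are the 3 stages and only genes with an A10.1 mean of at least 1 FPKM at the stage are drawn. Members on chromosome 3 start at Sevir.3G037500 with ratios of 1.73, 1.51, and 1.58 at 10, 12, and 14 DAS and end at Sevir.3G040600 with 1.53, 1.95, and 1.52, while the nearest drawn gene before them had 1.06, 0.954, and 0.842 and the next gene after them 0.923, 0.9601, and 0.984.

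The edges were read from the same values that chose the members. On chromosome 3, the last gene with reads before the run, Sevir.3G037300, had ratios of 1.06, 0.954, and 0.842 at 10, 12, and 14 DAS, and the gene between it and the run, Sevir.3G037400, was listed at 0. The first member, Sevir.3G037500, related by its annotation to the rubber elongation factor and small rubber particle proteins, had 1.73, 1.51, and 1.58. At the other end, Sevir.3G040600, a pentatricopeptide repeat protein of a family that processes organelle RNA, had 1.53, 1.95, and 1.52, and the next gene, Sevir.3G040700, had 0.923, 0.9601, and 0.984. Further on, Sevir.3G040900 had 0.916, 0.953, and 0.932. The weak Sevir.3G041000 after it had 1.43, 1.23, and 1.77, with groups that overlapped at each stage. On chromosome 5 the first member was Sevir.5G457800, matched to an organellar single-stranded DNA-binding protein in Arabidopsis but to a putative retrotransposon in rice. It had 1.51, 1.41, and 1.43. The nearest gene before it with a mean of at least 1 FPKM, Sevir.5G457500, had 1.17, 0.942, and 0.8597, and Sevir.5G457400 just before that had 1.09, 1.48, and 1.55. The far edge on chromosome 5 was less sharp in these data. Sevir.5G459200 was listed at 0 and Sevir.5G459300 to Sevir.5G459600 were weak. Of these, Sevir.5G459500 averaged 2.02 ± 1.09 (SD, n = 4) FPKM in *spp1* and 1.06 ± 0.434 (SD, n = 4) FPKM in A10.1 at 10 DAS. The next genes drawn at all 3 stages, named after their values were seen, were Sevir.5G459700 with ratios of 1.505, 1.52, and 1.14 and Sevir.5G459800 with 1.19, 1.21, and 0.905, so ratios above 1 went on past the last member at 10 and 12 DAS, and Sevir.5G459900 after them had 1.08, 0.992, and 0.985.

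The median over 11 neighbouring genes compared, centred in turn on each member, was 0.44 to 0.66 on the log2 scale at 10 DAS on chromosome 3 and 0.43 to 0.57 on chromosome 5. At 12 DAS the same running medians were 0.36 to 0.57 and 0.42 to 0.48, and at 14 DAS 0.19 to 0.56 and 0.23 to 0.50, for chromosomes 3 and 5 in that order. Windows that held no member reached 0.31 at 10 DAS and 0.37 at 12 DAS. At 14 DAS such windows reached 0.50, and 10 of 17459 were above 0.4. The runs were chosen by these same differences, so the gap to other windows is a description and no support.

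The raised level was seen in each of the 11 *spp1* libraries. The median log2 difference of the 17 well-expressed members on chromosome 3 from the A10.1 mean of the stage lay between 0.44 and 0.71 in the 11 *spp1* libraries, against -0.06 to 0.06 in the 11 A10.1 libraries. For the 4 well-expressed members on chromosome 5, it lay between 0.37 and 0.78 in *spp1*, against -0.31 to 0.23 in A10.1. The same measure over the 11980 other genes was between -0.23 and 0.07 in *spp1* and between -0.08 and 0.07 in A10.1. The -0.23 belonged to *spp1* 14 DAS replicate 4, the library with the fewest reads, in which the members on chromosome 3 stood at 0.48 and those on chromosome 5 at 0.68. All 17 members on chromosome 3 were above the A10.1 mean in 9 of the 11 *spp1* libraries, with 16 in *spp1* 14 DAS replicate 3 and 15 in replicate 4. All 4 members on chromosome 5 were above it in each *spp1* library. Each A10.1 library was part of the mean it was measured against, which draws its difference towards 0. The members were also chosen by the difference between the genotypes.

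**Figure D2:**
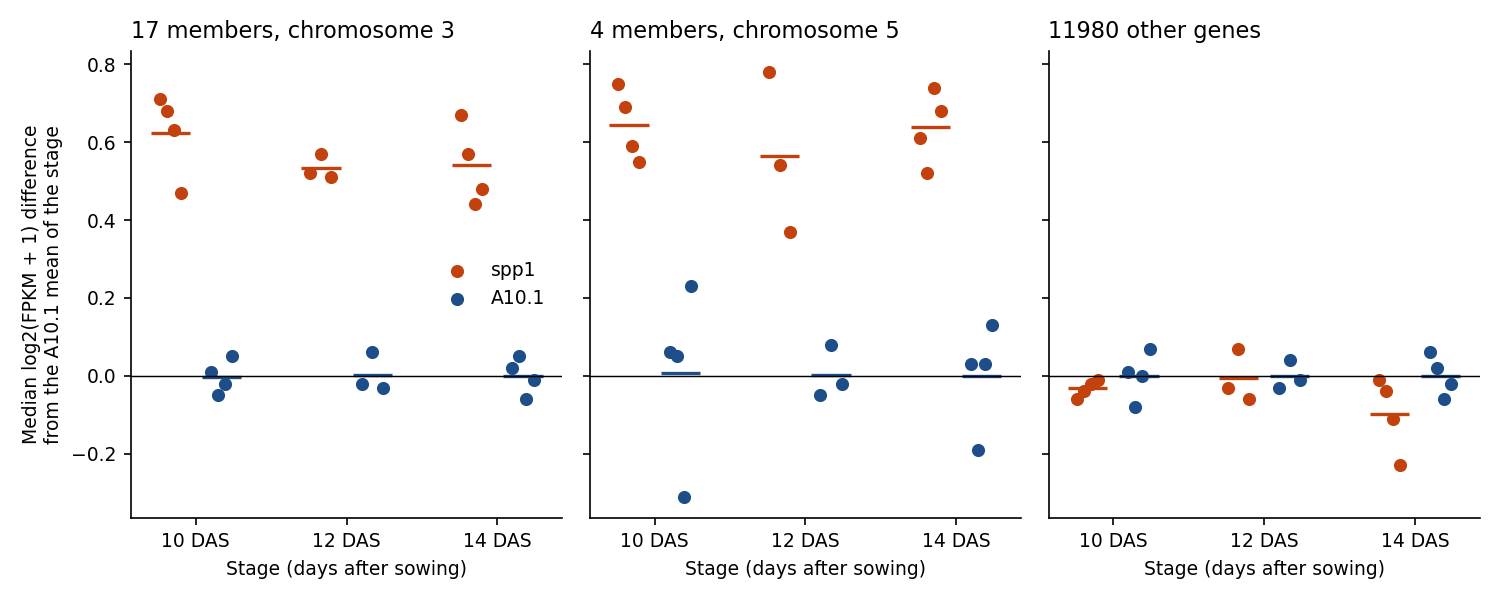
Median difference in log2(FPKM + 1) from the A10.1 mean of the same stage, by library, for the 17 and 4 well-expressed members of the 2 chromosomes and for 11980 other genes, with *spp1* libraries to the left of A10.1 libraries at each stage and a line at each group mean. The *spp1* libraries sit between 0.44 and 0.71 for chromosome 3 and between 0.37 and 0.78 for chromosome 5, all above the A10.1 libraries, and between -0.23 and 0.07 for the other genes.

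Counted gene by gene, every *spp1* library was above every A10.1 library for 23 of 35 members at 10 DAS, where 1.32% of all genes compared met that condition. The condition held for 26 of the 33 members compared at 12 DAS, where 7.37% of all genes met it. It held for 20 of the 31 compared at 14 DAS, where 4.09% of all genes met it. With limma and an adjusted p under 0.05, the members called higher in *spp1* numbered 2, 5, and 13 at 10, 12, and 14 DAS, beside 0.0167%, 0.0903%, and 0.68% of all genes compared. These counts rest on the contrast that chose the members and are given as a description. Sevir.5G459100, which entered only through its *spp1* libraries, is in each of these counts of separated and of called members. The counts of calls also moved by more than 1.5 times when most single libraries were left out, to between 1 and 2, 1 and 4, and 5 and 15 at the 3 stages, while the median log2 difference stayed between 0.50 and 0.66. Under the other settings the counts ran from 1 to 16 at 10 DAS (16 in 1 fit of all 22 libraries, 8 with median ratio scaling), from 1 to 15 at 12 DAS (1 with no filter, 15 with a replicate block), and from 8 to 20 at 14 DAS (8 with no filter, 20 in 1 fit). At an unadjusted limma p under 0.05, 30, 28, and 25 members were higher in *spp1*, beside 2.51%, 5.81%, and 7.06% of all genes compared. Called lower in *spp1* by limma were 0 members at each stage, beside 0.0112%, 0.198%, and 1.25% of all genes compared, and 0 members at an unadjusted p under 0.05, beside 1.64%, 3.25%, and 15.8%. Every *spp1* library was above every A10.1 library at all 3 stages for 15 of the 31 members compared at all 3, where 0.194% of all genes compared at all 3 met that condition, and also for Sevir.5G459000, which was too weak to be compared. The 15 include Sevir.5G459100. Of the 31 members compared at all 3 stages, 29 had a ratio above 1 at each. The other 2 were Sevir.5G458900, with no description, whose ratio was 0.777 at 14 DAS, and Sevir.5G459100, which was listed at 0 in A10.1 at 10 and 14 DAS.

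The ratios were not equal from gene to gene, and their spread was wider among weak genes. Among members with 1 to 5 FPKM in A10.1, the 11 ratios at 10 DAS spanned 1.31 to 3.14, the 9 at 12 DAS spanned 1.32 to 2.74, and the 6 at 14 DAS spanned 0.777 to 2.36. Among those with 20 to 100 FPKM, the 12, 14, and 13 ratios spanned 1.43 to 1.83, 1.26 to 1.78, and 1.14 to 2.46 at the same stages. Other genes of 20 to 100 FPKM had their 5th and 95th percentiles at 0.86 and 1.16, 0.859 and 1.21, and 0.7295 and 1.26 at the 3 stages. Taking each level class with its own limits, the members above the 95th percentile of the other genes were 33 of 34, 26 of 31, and 20 of 29 at the 3 stages. The members were chosen by these ratios, so the counts only describe them.

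**Figure D3:**
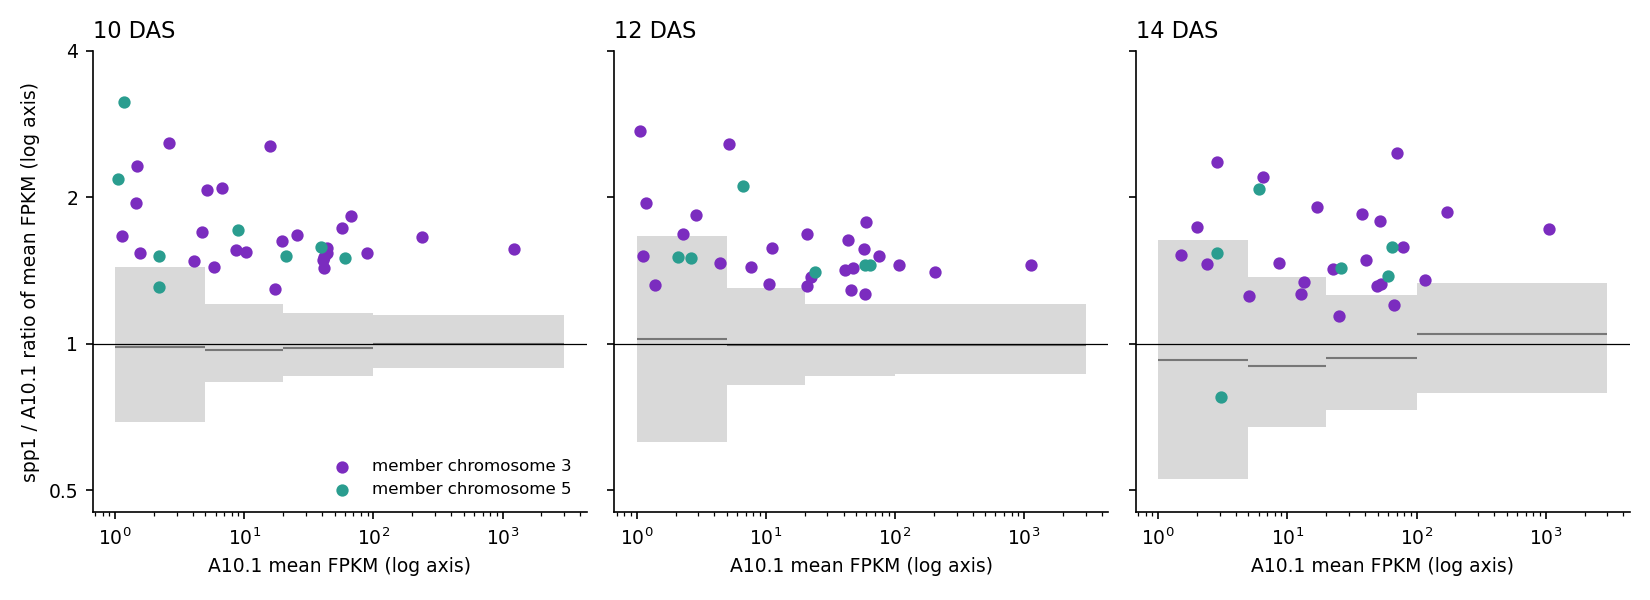
Ratio of mean FPKM in *spp1* over A10.1 (log axis) against the A10.1 mean FPKM of the stage (log axis) for members with at least 1 FPKM in A10.1, by chromosome, over a grey band that spans the 5th to 95th percentile of the other genes in 4 level classes, with a grey line at their median. Of the members drawn, 33 of 34, 26 of 31, and 20 of 29 lie above the band at 10, 12, and 14 DAS.

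Members tied to protein turnover, auxin perception included, come first. Sevir.3G038400 is annotated as a transport inhibitor response 1-like (TIR1-like) F-box protein with leucine-rich repeats, the class to which the auxin receptors belong. At 10 DAS, Sevir.3G038400 had 144, 143, 132, and 126 FPKM in the *spp1* libraries, against 97.2, 86.6, 81.5, and 90.8 FPKM in the A10.1 libraries. Sevir.3G038400 at 12 DAS measured 162, 162, and 148 FPKM in *spp1*, against 105, 113, and 107 FPKM in A10.1. At 14 DAS, Sevir.3G038400 had 169, 176, 159, and 127 FPKM in the *spp1* libraries, against 120.2, 115, 110.2, and 121 FPKM in the A10.1 libraries. The lowest *spp1* library was above the highest A10.1 library at each stage, and the ratios of the means were 1.53, 1.45, and 1.35. The log2 differences were 0.61 (SE 0.08), 0.53 (SE 0.08), and 0.42 (SE 0.11). The other TIR1-like genes of the auxin list, which lie on other chromosomes, were measured as well. Sevir.7G085300 had ratios of 0.888, 0.892, and 0.727, Sevir.8G141100 had 1.01, 0.993, and 0.736, and Sevir.9G517400 had 1.11, 1.13, and 1.14 at 10, 12, and 14 DAS, and limma called neither these 3 genes nor Sevir.3G038400 at any stage.

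Sevir.3G038900 encodes a cullin-1-like protein, the scaffold on which F-box proteins are mounted in SCF ubiquitin ligases. Sevir.3G038900 at 10 DAS measured 59.99, 60.4, 58.9, and 57.2 FPKM in *spp1*, against 39.6, 36.1, 38.8, and 51.1 FPKM in A10.1. At 14 DAS, Sevir.3G038900 had 94.4, 98.7, 67.7, and 60.9 FPKM in the *spp1* libraries, against 77.5, 78.3, 52.2, and 60.4 FPKM in the A10.1 libraries. The groups were apart at 10 DAS and overlapped at 12 and 14 DAS, and with ratios of 1.43, 1.26, and 1.199 it had the smallest median ratio over the stages among members of chromosome 3 with at least 1 FPKM in A10.1 at all stages, the members over which such ranks were taken. Sevir.3G038700 encodes a subunit 7-like protein of the anaphase-promoting complex, a ubiquitin ligase that drives cells through mitosis. Sevir.3G038700 at 14 DAS measured 37.96, 31.9, 32.3, and 27 FPKM in *spp1*, against 23.03, 23.4, 20.5, and 23.7 FPKM in A10.1. Its *spp1* libraries were above its A10.1 libraries at all 3 stages, with ratios of 1.63, 1.37, and 1.42. Sevir.3G040500 matches a rice F-box protein whose substrate is not named in the annotation. At 14 DAS, Sevir.3G040500 had 62.8, 62.2, 66.7, and 67.2 FPKM in the *spp1* libraries, against 44.4, 54.2, 51.8, and 46.9 FPKM in the A10.1 libraries. It too was separated at all 3 stages, and its ratios were 1.53, 1.29, and 1.31.

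Sevir.3G038800 carries the maize name dcd1 and matches TON2 of Arabidopsis, a regulatory subunit of a protein phosphatase that is needed to place the division plane in plant cells. At 10 DAS, Sevir.3G038800 had 65.5, 64.1, 62.4, and 57.2 FPKM in the *spp1* libraries, against 42.97, 36.7, 41.4, and 44.1 FPKM in the A10.1 libraries. Sevir.3G038800 at 12 DAS measured 64.7, 72.8, and 67.4 FPKM in *spp1*, against 46.1, 51.02, and 45.96 FPKM in A10.1. At 14 DAS, Sevir.3G038800 had 80.2, 78.2, 65.2, and 58.6 FPKM in the *spp1* libraries, against 56.6, 59.1, 47.1, and 50.1 FPKM in the A10.1 libraries. The groups did not overlap at 10 and 12 DAS, and at 14 DAS *spp1* replicate 4 fell within the A10.1 range. The ratios were 1.51, 1.43, and 1.32, with log2 differences of 0.58 (SE 0.09), 0.51 (SE 0.09), and 0.39 (SE 0.12).

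Members of the translation machinery included the most abundant gene of both runs. Sevir.3G037800 encodes a 40S ribosomal protein S4-like protein (maize rps4), a part of the small ribosomal subunit. Sevir.3G037800 at 10 DAS measured 1954, 1976, 2120.1, and 1667 FPKM in *spp1*, against 987, 1178, 1239, and 1526 FPKM in A10.1. At 12 DAS, Sevir.3G037800 had 1633, 1652, and 1686 FPKM in the *spp1* libraries, against 1134, 1182, and 1105 FPKM in the A10.1 libraries. Sevir.3G037800 at 14 DAS measured 1921, 1752, 1594, and 2062 FPKM in *spp1*, against 1116, 1063, 1045, and 1036 FPKM in A10.1. Each *spp1* library was above each A10.1 library at all 3 stages, and the ratios were 1.56, 1.45, and 1.72. Ribosomal protein genes have near-identical copies, so reads of another copy may have been assigned to this one, which also holds for the glutathione S-transferases and the calmodulin-like genes named further on. Sevir.3G040400 is annotated as a mitochondrial ribosomal protein S27-like gene. At 10 DAS, Sevir.3G040400 had 420.3, 400.5, 433, and 329 FPKM in the *spp1* libraries, against 209, 229, 294, and 226 FPKM in the A10.1 libraries. Sevir.3G040400 at 14 DAS measured 270.1, 255, 271, and 485 FPKM in *spp1*, against 149, 153, 206, and 178 FPKM in A10.1. The groups were apart at all 3 stages, with ratios of 1.65, 1.41, and 1.87, and at 14 DAS replicate 4 of *spp1* stood well above the other libraries. Sevir.3G037700 encodes a beta-subunit-like protein of phenylalanine-tRNA ligase, which loads the amino acid onto its tRNA. At 14 DAS, Sevir.3G037700 had 68.2, 67.1, 50.3, and 57.2 FPKM in the *spp1* libraries, against 43.95, 41.6, 36.5, and 41 FPKM in the A10.1 libraries. Its ratios were 1.49, 1.42, and 1.49, and 1 A10.1 library at 10 DAS (51.6 FPKM, replicate 4) overlapped the lowest *spp1* library.

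Genes that act on DNA, chromatin, or RNA lay in the run on chromosome 3. Sevir.3G039300 encodes a protein with a PWWP domain, a fold that binds methylated histones and DNA. Sevir.3G039300 at 10 DAS measured 141, 125, 112, and 117 FPKM in *spp1*, against 65.5, 75.03, 70.4, and 59.4 FPKM in A10.1. At 12 DAS, Sevir.3G039300 had 101, 74.3, and 93.3 FPKM in the *spp1* libraries, against 60.8, 52.1, and 59.02 FPKM in the A10.1 libraries. Sevir.3G039300 at 14 DAS measured 77.04, 73.2, 92.5, and 130.1 FPKM in *spp1*, against 46.7, 49.03, 56.6, and 55.8 FPKM in A10.1. The *spp1* libraries were the higher ones at all 3 stages, with ratios of 1.83, 1.56, and 1.79, and they were most spread at 14 DAS. Sevir.3G038500 matches dsRNA-binding protein 2 of Arabidopsis, a partner of small RNA processing. At 14 DAS, Sevir.3G038500 had 19.2, 19.5, 18.8, and 14.8 FPKM in the *spp1* libraries, against 13.99, 13.2, 13.01, and 13.9 FPKM in the A10.1 libraries. It was separated at all 3 stages, with ratios of 1.54, 1.57, and 1.34. Sevir.3G038300 matches the RecQ helicase SIM, of a family of DNA-unwinding enzymes, and was expressed more weakly. Sevir.3G038300 at 14 DAS measured 7.39, 7.42, 5.8, and 4.53 FPKM in *spp1*, against 5.7, 4.69, 4.34, and 5.33 FPKM in A10.1. The groups overlapped at 14 DAS and were apart at 10 and 12 DAS, with ratios of 1.48, 1.47, and 1.25.

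Sevir.3G038200 had the largest median ratio over the stages on chromosome 3. It is described as a glycine-rich cell wall structural protein-like gene, and its Arabidopsis match as a heavy metal transport and detoxification protein. Sevir.3G038200 at 10 DAS measured 40.7, 60.5, 18.9, and 41.7 FPKM in *spp1*, against 20.3, 18.7, 12.3, and 12.2 FPKM in A10.1. At 12 DAS, Sevir.3G038200 had 119.7, 101, and 95.5 FPKM in the *spp1* libraries, against 73.9, 53.6, and 50.3 FPKM in the A10.1 libraries. Sevir.3G038200 at 14 DAS measured 152, 175, 172, and 202 FPKM in *spp1*, against 69.03, 80.3, 71.8, and 63.1 FPKM in A10.1. At 10 DAS 1 *spp1* library, replicate 3, lay among the A10.1 libraries, and at 12 and 14 DAS the groups were apart. The ratios were 2.55, 1.78, and 2.46. Sevir.3G040300, which has no description, had similar ratios of 2.09, 2.58, and 2.2, but its A10.1 libraries at 10 DAS alone ran from 0.58 to 13.3 FPKM and its groups were apart only at 12 DAS. The smallest single ratio among the well-expressed members belonged to Sevir.3G038000, also undescribed, with 1.29, 1.32, and 1.14 and groups that overlapped at each stage.

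After its first member, the run on chromosome 5 held calcium sensors and a gene of light perception. Sevir.5G457900 and Sevir.5G458100 are annotated as calmodulin-like proteins (CML35-like and CML10-like), which bind calcium through EF hands. At 10 DAS, Sevir.5G457900 had 52.2, 71.5, 56.2, and 69.1 FPKM in the *spp1* libraries, against 38.95, 40.7, 26.1, and 52.1 FPKM in the A10.1 libraries. Sevir.5G457900 at 14 DAS measured 81.5, 70.4, 122, and 132 FPKM in *spp1*, against 58.1, 51.6, 72.5, and 74.4 FPKM in A10.1. Its groups were just apart at 10 DAS, apart at 12 DAS, and overlapped at 14 DAS, with ratios of 1.58, 1.45, and 1.58. Sevir.5G458100 at 10 DAS measured 14.8, 17.1, 14.6, and 15.4 FPKM in *spp1*, against 9.54, 9.22, 6.71, and 10.6 FPKM in A10.1. At 12 DAS, Sevir.5G458100 had 15.2, 12.8, and 14.3 FPKM in the *spp1* libraries, against 6.2, 7.3, and 6.6 FPKM in the A10.1 libraries. Sevir.5G458100 at 14 DAS measured 11.6, 11.1, 14.7, and 13.3 FPKM in *spp1*, against 6.25, 4.97, 6.6, and 6.52 FPKM in A10.1. Sevir.5G458100 was separated at all 3 stages and had the largest median ratio over the stages on this chromosome, with 1.72, 2.11, and 2.08. Sevir.5G458000 (maize elm1, Arabidopsis HY2) encodes phytochromobilin:ferredoxin oxidoreductase, which makes the chromophore of the phytochromes. At 14 DAS, Sevir.5G458000 had 4.37, 4.48, 4.24, and 4.53 FPKM in the *spp1* libraries, against 2.4, 3.19, 2.81, and 3.05 FPKM in the A10.1 libraries. It was a weak gene with ratios of 1.52, 1.501, and 1.54, and its groups were apart at 12 and 14 DAS.

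Sevir.5G458200, with an NB-ARC domain of the disease resistance type, had ratios of 1.497, 1.45, and 1.38 at 60.5 ± 7.47 (SD, n = 4), 58.5 ± 5.97 (SD, n = 3), and 60.05 ± 5.43 (SD, n = 4) FPKM in A10.1. Sevir.5G458900, which has no description, had the smallest median ratio over the stages there. Sevir.5G458900 at 14 DAS measured 2.19, 2.67, 2.59, and 2.08 FPKM in *spp1*, against 3.35, 2.36, 2.19, and 4.37 FPKM in A10.1. Its groups overlapped at each stage, and its ratios were 1.31, 1.51, and 0.777.

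The last member on chromosome 5 was at or near 0 in A10.1. Sevir.5G459100 encodes a glutathione S-transferase of the tau class, enzymes that attach glutathione to small molecules. At 10 DAS, Sevir.5G459100 had 26.8, 11.6, 13.5, and 7.04 FPKM in the *spp1* libraries, against 0, 0, 0, and 0 FPKM in the A10.1 libraries. Sevir.5G459100 at 12 DAS measured 14.3, 7, and 12.6 FPKM in *spp1*, against 0, 0.18, and 0.13 FPKM in A10.1. At 14 DAS, Sevir.5G459100 had 6.72, 8.45, 12.96, and 20.3 FPKM in the *spp1* libraries, against 0, 0, 0, and 0 FPKM in the A10.1 libraries. It was listed at 0 in 9 of 11 A10.1 libraries and had at least 6.72 FPKM in every *spp1* library, so the groups did not overlap at any stage and no fold is given. Its neighbour Sevir.5G459000, without a description, averaged 1.698 ± 0.591 (SD, n = 4), 1.59 ± 0.7095 (SD, n = 3), and 0.81 ± 0.374 (SD, n = 4) FPKM in *spp1*, against 0.228 ± 0.0591 (SD, n = 4), 0.183 ± 0.0709 (SD, n = 3), and 0.163 ± 0.0881 (SD, n = 4) FPKM in A10.1, and was likewise apart at all 3 stages. Of the glutathione S-transferases on chromosome 3, Sevir.3G039900 was weak. Sevir.3G039900 at 14 DAS measured 4.52, 2.36, 3.7, and 3.19 FPKM in *spp1*, against 2.33, 1.72, 1.77, and 2.12 FPKM in A10.1. Its ratios were 2.32, 2.74, and 1.73, and those of Sevir.3G039600, a GSTF1-like gene, were 1.95, 1.84, and 2.36.

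**Figure D4:**
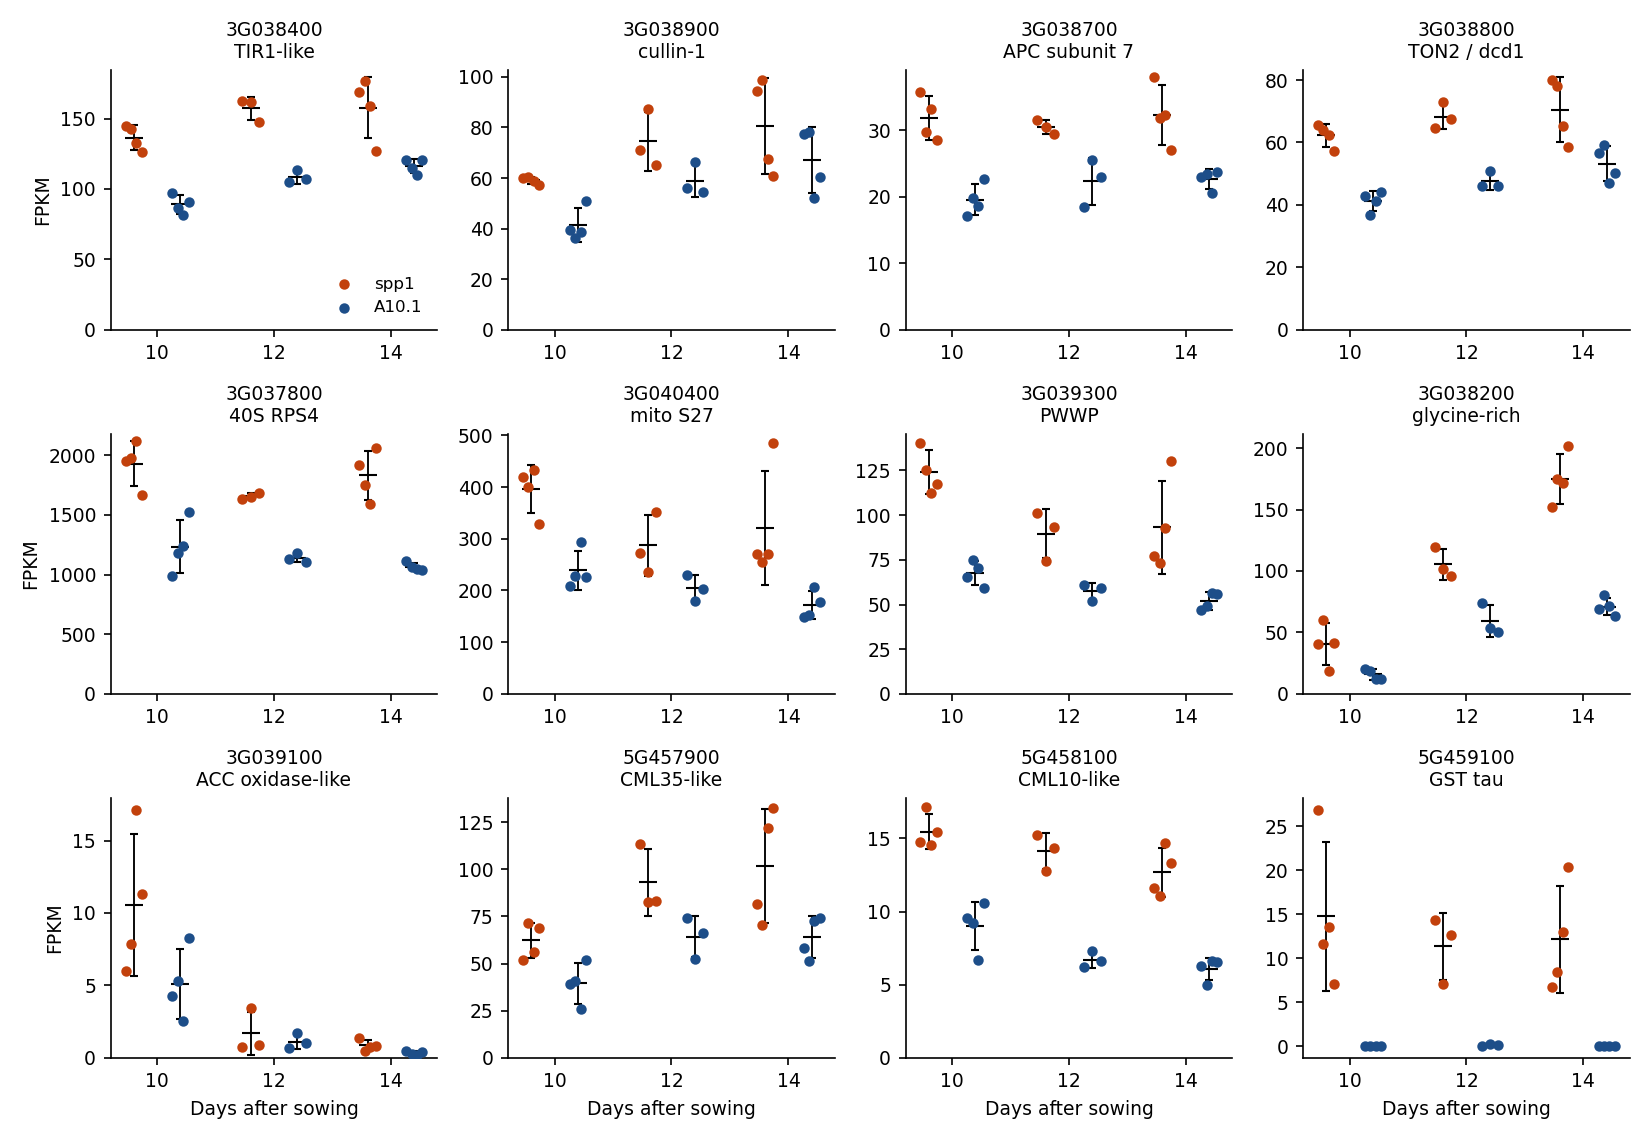
FPKM of 12 members in every library at 10, 12, and 14 DAS, with *spp1* to the left of A10.1 at each stage, points for libraries, and black bars for the mean and SD. The TIR1-like gene Sevir.3G038400 averaged 158 ± 21.7 (SD, n = 4) FPKM in *spp1* and 116 ± 4.97 (SD, n = 4) FPKM in A10.1 at 14 DAS, whereas Sevir.5G459100 lies near 0 in A10.1 at all stages and averaged 12.1 ± 6.08 (SD, n = 4) FPKM in *spp1*.

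The rest of the run on chromosome 3 included metabolic and transport genes beside genes of unknown function. Sevir.3G038100 (tetrahydrofolate synthase-like, one-carbon metabolism) had ratios of 1.57, 1.63, and 1.84, and Sevir.3G038600 (a predicted pyridoxal phosphate-dependent enzyme) had 1.68, 1.68, and 1.91, both separated at all 3 stages. Sevir.3G040100, a sodium/hydrogen exchanger 2-like gene, had 1.56, 1.33, and 1.26 and overlapped at 14 DAS. Sevir.3G040200, uncharacterised, had 1.696, 1.44, and 1.46 and was separated throughout. Sevir.3G037900, with no description, had 2.59, 1.68, and 1.46 at A10.1 means under 3 FPKM, and its groups were apart at 10 DAS only. Sevir.3G039000 (DUF821) was compared at 10 DAS alone, where it averaged 1.88 ± 0.414 (SD, n = 4) FPKM in *spp1* and 1.13 ± 0.386 (SD, n = 4) FPKM in A10.1, with overlapping libraries.

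The weakest members gave little to compare. The 11 that entered no comparison had no library above 2.55 FPKM, the value of Sevir.5G459000 in *spp1* at 10 DAS. Some of the 11 had a lower mean in *spp1* than in A10.1 at a stage. Sevir.3G039400 was listed at 0 in every *spp1* library and reached 2.12 FPKM in 1 A10.1 library, and Sevir.5G458800 was listed at 0 in every *spp1* library and reached 0.11 FPKM in 1 A10.1 library. Sevir.3G039500 at 10 DAS, Sevir.3G040000 at 12 DAS, and Sevir.5G458700 at 12 and 14 DAS also had lower *spp1* means, all with libraries under 1 FPKM. Among the 4 members compared at 1 or 2 stages, Sevir.5G458500 averaged 3.65 ± 1.2 (SD, n = 4) FPKM in *spp1* and 1.17 ± 1.22 (SD, n = 4) FPKM in A10.1 at 10 DAS, and its groups did not overlap there. Sevir.5G458300, which averaged about 1 FPKM in A10.1, had ratios of 2.18, 1.66, and 2.21 with overlapping groups.

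The size of the genotype difference was also compared between the stages, on the same libraries that chose the members. With the limma F test of the interaction of genotype and stage, 0 of the 34 members fitted were called at an adjusted p under 0.05, where 0.0615% of all genes were, and 0 at an unadjusted p under 0.05, where 4.87% of all genes were. The lowest adjusted p among the members was 0.939, for Sevir.3G037800. The lowest unadjusted p was 0.0568, for Sevir.5G458900, the member whose ratio was below 1 at 14 DAS. A p that misses the threshold does not show that the ratios were equal at the 3 stages.

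How the members changed with stage in A10.1 alone is a separate measure that did not enter their choice. The 31 members with a mean of at least 1 FPKM over the A10.1 libraries were tested with limma. Between 12 and 10 DAS, 6 were higher and 1 lower at 12 DAS, beside 6.84% and 6.37% of all genes. With the libraries scaled by their median ratio, that split was 2 and 2. Between 14 and 12 DAS, limma called 0 members, where 2.44% of all genes were higher, 2.74% lower, and 5.18% changed in all. At an unadjusted p under 0.05 there were 5 members, beside 19.7% of all genes. Between 14 and 10 DAS, 12 were higher and 6 lower at 14 DAS, together 18 of 31, beside 31.4% and 16.9% of all genes, together 48.4%. At an unadjusted p under 0.05 there were 21 members, beside 55.5% of all genes. With median ratio scaling of the libraries the split was 9 higher and 8 lower, and the median change of all genes moved by -0.12, to 0.02 from 0.13 on the log2 scale. The members therefore moved in both directions, as other genes did.

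Both rises and falls with stage were found within each run in A10.1. Sevir.3G038200, the glycine-rich gene, had the largest rise in A10.1, with a log2 change of 2.12 (SE 0.17, adjusted p = 2.05e-06) between 14 and 10 DAS. The uncharacterised Sevir.3G040200 rose by 0.76 (SE 0.10, adjusted p = 0.000104), and the calmodulin-like Sevir.5G457900 by 0.71 (SE 0.19, adjusted p = 0.00913). Cullin-1-like Sevir.3G038900 rose by 0.68 (SE 0.14, adjusted p = 0.00258), and the TIR1-like Sevir.3G038400 by 0.39 (SE 0.07, adjusted p = 0.00137). The TON2 gene Sevir.3G038800 rose by 0.36 (SE 0.09, adjusted p = 0.00759), and Sevir.3G038500, the dsRNA-binding protein gene, by 0.35 (SE 0.08, adjusted p = 0.00355). The sodium/hydrogen exchanger gene Sevir.3G040100 rose by 0.50 (SE 0.09, adjusted p = 0.00102), Sevir.3G037500 by 0.45 (SE 0.11, adjusted p = 0.00447), and Sevir.5G457800 by 0.31 (SE 0.09, adjusted p = 0.0143). Sevir.3G038000 and Sevir.3G039600 were the remaining members that rose, by 0.55 (SE 0.19, adjusted p = 0.0325) and 0.62 (SE 0.23, adjusted p = 0.041), and they were called in 2 and 3 of the 8 fits that each left out 1 library and in neither case under median ratio scaling. Sevir.5G457800 also lost it under that scaling, with an adjusted p of 0.0739.

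Of the members tested, 6 fell with stage in A10.1. Sevir.3G039100 is annotated as a 1-aminocyclopropane-1-carboxylate oxidase-like gene, the class that makes ethylene, with a more general oxygenase match in Arabidopsis. At 10 DAS, Sevir.3G039100 had 6, 7.85, 17.1, and 11.3 FPKM in the *spp1* libraries, against 4.3, 5.33, 2.54, and 8.27 FPKM in the A10.1 libraries. In *spp1* the gene held over the stages 6 to 17.1 FPKM at 10 DAS, 0.76 to 3.42 FPKM at 12 DAS, and 0.47 to 1.39 FPKM at 14 DAS. In A10.1 it held 2.54 to 8.27 FPKM at 10 DAS, 0.65 to 1.68 at 12 DAS, and 0.21 to 0.49 at 14 DAS, a log2 change of -2.11 (SE 0.25, adjusted p = 3.78e-05) between 14 and 10 DAS. The genotypes overlapped at each stage. Its undescribed neighbour Sevir.3G039200 followed with -1.98 (SE 0.52, adjusted p = 0.00831), from weak and scattered values. The pyridoxal phosphate-dependent enzyme gene Sevir.3G038600 fell by 0.56 (SE 0.09, adjusted p = 0.000332), Sevir.5G458100 by 0.49 (SE 0.13, adjusted p = 0.00849), Sevir.3G040400 by 0.48 (SE 0.13, adjusted p = 0.0105), and Sevir.3G039300 by 0.37 (SE 0.10, adjusted p = 0.00821).

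The stage course was tested in *spp1* as well, in separate libraries. Of 36 members there, limma called 9 as changed in either direction at 14 DAS against 10 DAS, beside 18.2% of all genes. Among the 36, Sevir.3G039000, Sevir.5G458300, Sevir.5G458500, Sevir.5G459000, and Sevir.5G459100 averaged under 1 FPKM in A10.1 and entered only through their higher level in *spp1*. Sevir.3G039000 and Sevir.5G458500 are among the 9 called. Of the 31 members tested in both genotypes, 7 were called in *spp1* and 18 in A10.1, and 6 were called in both, which is 6 of 7 and 6 of 18, beside 89.3% and 33.3% for the other genes. These 6 were Sevir.3G038200, Sevir.3G040200, Sevir.5G457900, and Sevir.3G039600, which rose, and Sevir.3G039100 and Sevir.3G039200, which fell. All 18 called in A10.1 had the same sign of change in *spp1*, and 26 of all 31 did, beside 96.9% and 83.3% of the other genes. The median log2 change of the 31 was 0.03 in *spp1* and 0.27 in A10.1, against 0.05 in *spp1* and 0.13 in A10.1 for the 17542 other genes. A gene called in 1 genotype and not in the other is not shown to differ between them. The interaction test above called no member, but it used the contrast that chose them. It therefore does not show that the courses were equal. The *spp1* call of Sevir.5G457900 (adjusted p = 0.0403 by limma) was lost with no filter (0.0625), with median ratio scaling (0.087), and with a replicate block (0.056). In *spp1*, leaving out 14 DAS replicate 4 raised the count of members called between 14 and 10 DAS to 15, against 9 with all libraries.

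**Figure D5:**
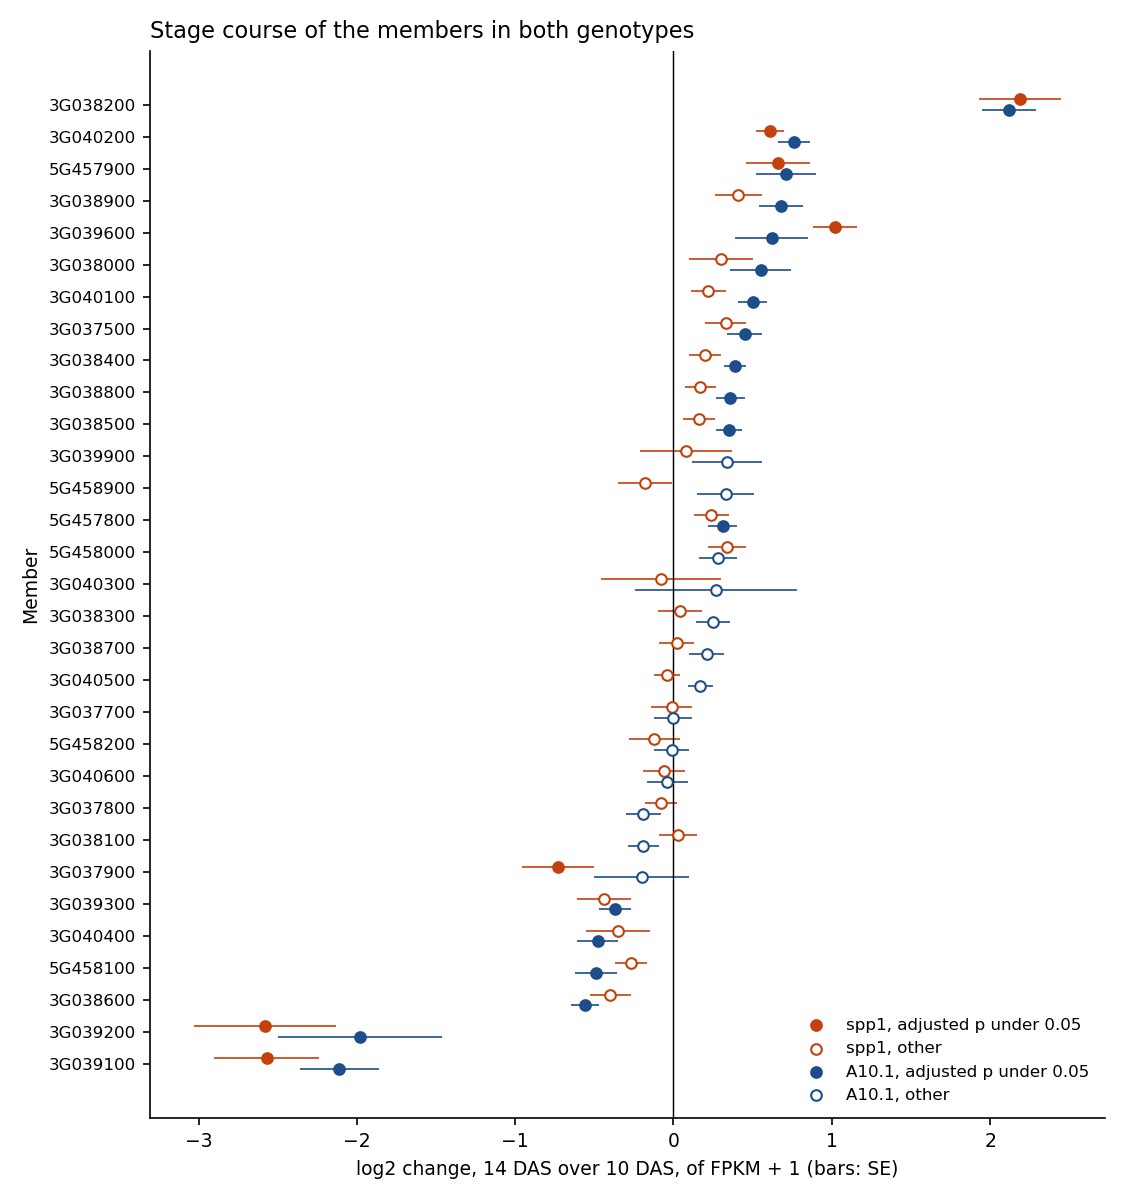
Change of each of 31 members between 14 and 10 DAS, as log2 of FPKM + 1 with SE bars, in *spp1* (upper mark of each pair) and A10.1 (lower mark), with filled marks for an adjusted p under 0.05. Sevir.3G038200 has the largest rise, 2.19 in *spp1* and 2.12 in A10.1, and Sevir.3G039100 falls by 2.57 in *spp1* and 2.11 in A10.1.

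The annotation named no function common to the members. Annotation was taken from the deposited gene lists, which cover only genes the authors had called. They held 29 of the 46 members (23 on chromosome 3 and 6 on chromosome 5), among them Sevir.3G040300 without a description, and the others are named only. Of 22 members on chromosome 3 with a best match in rice, 18 fell in 1 block of rice chromosome 5, with locus numbers descending along the run. Of 6 on chromosome 5 with a rice match, 5 fell in 1 block of rice chromosome 1, ascending along the run. For all 23 and 6 annotated members, a foxtail millet (*S. italica*) homologue was on the chromosome of the same number. The roles held by more than 1 annotated member included protein turnover (4 genes), translation (3), glutathione transfer (3), and calcium binding (2). Of the 4 genes of protein turnover, only Sevir.3G038400 has an annotation that names auxin perception. Several members have a match that acts on DNA, chromatin, or RNA, among them the PWWP, dsRNA-binding, RecQ helicase, single-stranded DNA-binding, and pentatricopeptide repeat genes.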

How the data were processed

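RNA from *spp1* and A10.1 inflorescences at 3 stages was sequenced in 22 libraries. The authors trimmed the reads, aligned them with tophat2 and bowtie 2 (*S. viridis* genome, version 1), and deposited FPKM of primary transcripts from cuffdiff. Tool versions are not given in the sources used here. The library kit kept strand, but whether the counting used it is not stated. The numbers of mapped reads and the percent mapped were deposited by the authors per library. The deposited lists of called genes gave the annotation only, and their fold changes, p-values, and group means were not used.

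FPKM were taken to log2(FPKM + 1) and tested with limma (3.58.1, R 4.3.3) per comparison, over all genes that averaged 1 FPKM or more across the libraries compared, with Benjamini-Hochberg adjustment over all of them and a threshold of 0.05. Fold changes on this scale understate the change of low genes. The stage courses were fitted within each genotype. Whether replicates were separate plantings is not stated, so p-values measure the spread between these pools. The fit was tested on simulated data. Python 3.11.15, pandas 2.3.3, numpy 2.4.6, and matplotlib 3.10.9 were also used.

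The members, the gene groups, and the named genes were chosen with earlier results of these data known. Members with a named role, and those with the largest and smallest median ratio in each run among members with at least 1 FPKM in A10.1 at all stages, were given by library, and other members by ranges and counts. Other settings were a pseudocount of 0.1, no filter, a filter at 5 FPKM, median ratio scaling, 1 fit of all libraries, a replicate block, and leaving out each library.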

Additional observations from a re-analysis of the deposited data

Results flagged for a closer look

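The values of 1 member, or the median of 1 run, in the 4 libraries of a group made up a set. Of 82 such sets checked, 2 held a library that stood far from the others of its group. Chance alone gives such a gap in about 1 in 20 sets, so 2 of 82 is not above that rate. Sevir.3G040400, annotated as a mitochondrial ribosomal protein S27-like gene, had 485.33 FPKM in *spp1* 14 DAS replicate 4, against 254.57 to 271.21 FPKM in the other 3 libraries of that group. Sevir.3G038500, the dsRNA-binding protein gene, had 14.82 FPKM in the same library, against 18.80 to 19.48 FPKM in the other 3. This library was also the shallowest, with 10.4 M mapped first reads and 86.69% of reads mapped. The part of depth in these values was not tested.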

How the results depend on the processing

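The counts of calls did not hold their size over the alternatives run. The raised level kept its direction in all of them, which is no support, since the members were chosen by that difference in these same libraries. The median log2 difference of the members compared was 0.60 to 0.70 at 10 DAS, 0.48 to 0.54 at 12 DAS (0.48 with no filter), and 0.49 to 0.61 at 14 DAS over the other settings. With 1 library left out it was 0.60 to 0.66, 0.50 to 0.56, and 0.50 to 0.55. Members called higher in *spp1* at 10 DAS, 2 in all, became 4 with no filter, 1 with at least 5 FPKM, 8 with median ratio scaling, and 16 in 1 fit of all 22 libraries. At 12 DAS, 5 became 1 with no filter, 3 with scaling, and 9 in 1 fit. At 14 DAS, 13 became 8 with no filter and 20 in 1 fit. Leaving out 1 library gave 1 to 2, 1 to 4, and 5 to 15. The count was 1 at 10 DAS without A10.1 replicate 1, 2, or 3 or any *spp1* replicate, and 1 at 12 DAS without *spp1* replicate 4 or any A10.1 replicate. At 14 DAS it was 7, 8, and 8 without *spp1* replicates 1, 2, and 3, and 5, 6, 8, and 6 without A10.1 replicates 1 to 4. The cause was not tested.

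For the stage courses, the 7 members called between 12 and 10 DAS in A10.1 became 4 with scaling and 3 to 9 with 1 library left out, with 4 and 3 without 10 DAS replicates 1 and 2 and 3 and 3 without 12 DAS replicates 1 and 4. The count between 14 and 12 DAS stayed 0 to 0. That between 14 and 10 DAS ran from 16 to 21 with 1 library left out and was 15 with at least 5 FPKM. In *spp1*, the 9 members called between 14 and 10 DAS became 3 with at least 5 FPKM and 6 to 15 with 1 library left out.

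The replicate numbers were not taken to pair the libraries, since what they mark is not stated. The correlations of same-numbered deviations between genotypes ran from -0.0629 to 0.338, and most were positive. Those of different-numbered deviations ran from -0.462 to 0.483, and most were negative. Whether the numbers mark a shared planting was not tested. A replicate block gave 1, 15, and 14 members called higher at 10, 12, and 14 DAS, and 11 called in the *spp1* stage course.

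FPKM hold no counts, so the depth behind weak members is unknown.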
